A study of Mus musculus with 12 samples.

Results

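The 10 genes described here control how many mitochondria a cell makes and how the mitochondrial genome is read and copied. They were taken by name from 43346 genes listed for mouse kidney, and each was found once. They are the PGC-1 coactivators Ppargc1a and Ppargc1b, their partner Perm1, the estrogen-related receptors Esrra and Esrrg, the transcription factor Nrf1, the mitochondrial transcription proteins Tfam and Tfb2m, the mitochondrial DNA polymerase Polg and the mitochondrial deacetylase Sirt3. Messenger RNA was sequenced in 12 kidney libraries at day 1, 6 from sham mice (numbers 1 to 6) and 6 from mice with HP-AKI (numbers 7, 8, 9, 11, 12 and 13). AKI means acute kidney injury. The letters HP usually denote its heme protein form, in which myoglobin or hemoglobin overloads the kidney, but the labels leave them unexplained. Strain, sex, age, genotype and the agent that caused the injury are not given in the sources used here. Nothing in the labels says that the libraries come from separate animals, so every p-value reflects library-to-library spread alone, and some of that may be technical.

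The genes were picked for their roles with an earlier result of this comparison in view, in which Perm1 had one of the deepest falls of any gene. Their differences between HP-AKI and sham are therefore given as values. No p-value is given for them, and the count of calls from the fit over all genes is given once as a description. Related genes outside the 10 were tested, but their lists were also chosen with earlier results of these data known. Their p-values and counts are therefore no independent check.

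Mitochondria are built from proteins of both the nuclear and the mitochondrial genome, and biogenesis keeps the supply of both matched. PGC-1 coactivators do not bind DNA themselves. They dock on receptors such as ERR-alpha (Esrra) and ERR-gamma (Esrrg) and on NRF1, which then switch on genes of respiration, fat oxidation and mitochondrial DNA maintenance. Reabsorption of filtered solutes makes the kidney tubule one of the most mitochondria-rich epithelia of the body.

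Among the 10 genes, the coactivators Ppargc1a and Ppargc1b, Perm1, the receptors and Sirt3 were lower in HP-AKI. Tfam, Tfb2m and Polg were nearer to sham, and Nrf1 was higher. Related genes differed from this order: the coactivator Pprc1 rose, and most listed genes of mitochondrial transcription and replication fell (below). Mean HP-AKI levels were 4.003% of sham for Perm1, 30.1% for Sirt3, 32.8% for Esrrg, 40.9% for Esrra, 42.2% for Ppargc1a and 66.7% for Ppargc1b. They were 81.2% of sham for Tfam, 91.1% for Tfb2m, 116% for Polg and 178% for Nrf1. In the fit over all 17470 genes tested, 9 of the 10 were past an adjusted p of 0.05 (2 higher, 7 lower), where 72.8% of all tested genes were (37.7% higher, 35.2% lower). Tfb2m was not. The groups did not overlap in 5 of the 10 (1 higher, 4 lower), nor in 52.4% of all tested genes (26.7% higher, 25.8% lower). Because the genes were chosen on this comparison, nothing is read from these counts.

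**Figure D1:**
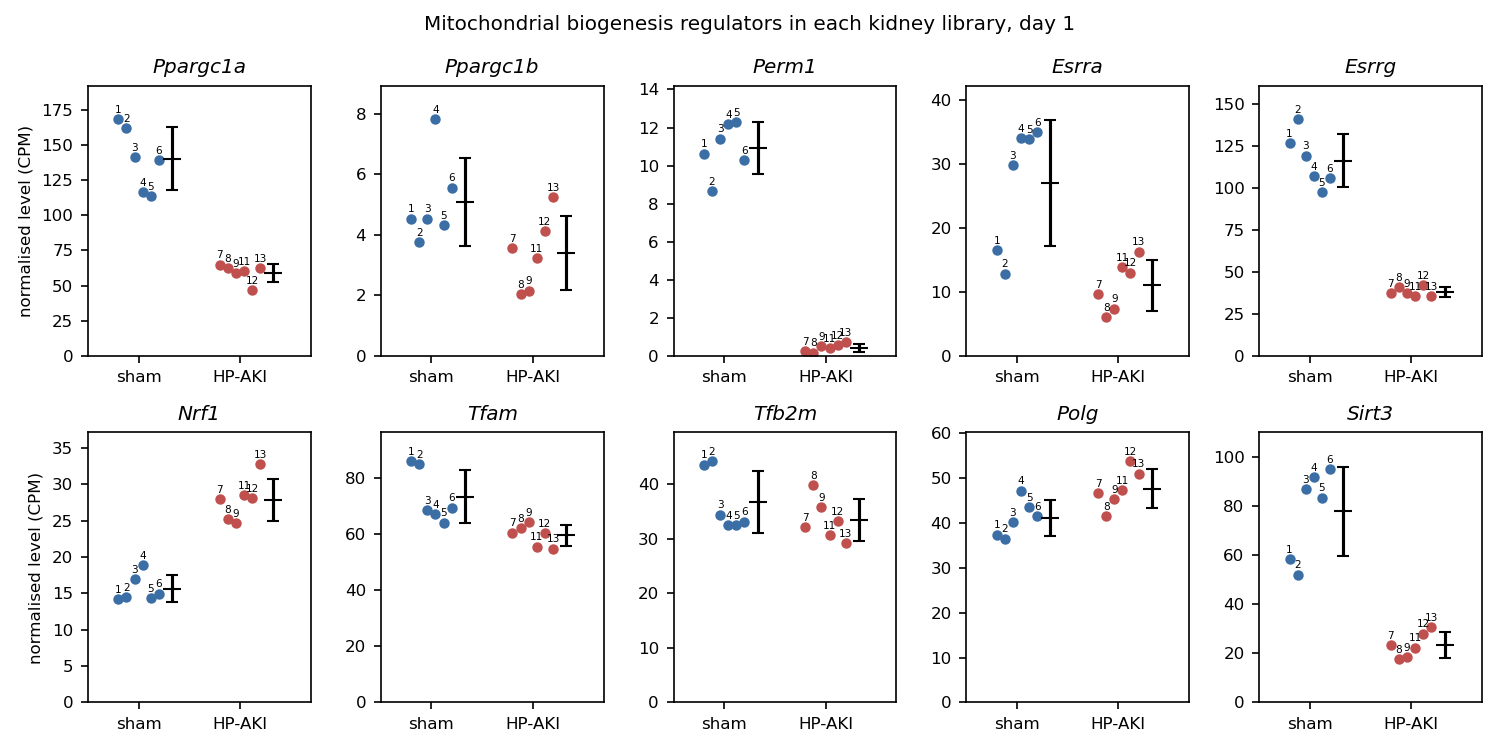
Level of each of the 10 genes in every library, in CPM (counts scaled to a common library total, linear axes from 0). Points are libraries with their numbers, and bars are the mean and SD of each group (n = 6). Perm1 is near the baseline in all 6 HP-AKI libraries, Nrf1 is the one gene whose HP-AKI points all lie above sham, and sham 1 and sham 2 sit apart in Esrra, Sirt3, Tfam and Tfb2m.

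All 10 are protein-coding, and positions are those of the deposited table under GRCm38. Ppargc1a (ENSMUSG00000029167) lies on the minus strand of chromosome 5 from 51454249 to 51567725, Perm1 (ENSMUSG00000078486) on the plus strand of chromosome 4 from 156215868 to 156221307. Ppargc1b is listed as ENSMUSG00000033871. Esrra (ENSMUSG00000024955) lies on the minus strand of chromosome 19 from 6910977 to 6921813 and Esrrg (ENSMUSG00000026610) on the plus strand of chromosome 1 from 187608791 to 188214885. Nrf1 (ENSMUSG00000058440) lies on chromosome 6 from 30047988 to 30153458, Tfam (ENSMUSG00000003923) on chromosome 10 from 71225464 to 71238280 and Tfb2m (ENSMUSG00000026492) on chromosome 1 from 179528055 to 179546267. Polg (ENSMUSG00000039176) and Sirt3 (ENSMUSG00000025486) both lie on the minus strand of chromosome 7, from 79448791 to 79466362 and from 140863670 to 140882309. Exons of Sirt3 share 418 bases with Ric8a and 342 with Psmd13 on the opposite strand, those of Polg share 921 with Fanci and those of Esrra 73 with Trmt112 (GENCODE vM21). TruSeq RNA v2 does not mark the strand, so reads from these stretches cannot be assigned with certainty.

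Promoter sequence is shown for 4 of the 5 genes that were more than 2-fold lower in HP-AKI, because these control regions are where the network's own factors could bind. The other, Esrrg, is not shown, and no searched motif matched in its windows or in those of Ppargc1a. RefSeq windows of GRCm38.p6, each 300 bases around a start site, were found for 9 of the 10 genes. Below are the 150 bases upstream of the most upstream start site, read 5′ to 3′ on the gene's strand, with matches to searched motifs in capitals. They span chr5:51567727-51567876 (Ppargc1a, minus strand), chr4:156215718-156215867 (Perm1, plus strand), chr19:6921814-6921963 (Esrra, minus strand) and chr7:140882310-140882459 (Sirt3, minus strand).
Ppargc1a: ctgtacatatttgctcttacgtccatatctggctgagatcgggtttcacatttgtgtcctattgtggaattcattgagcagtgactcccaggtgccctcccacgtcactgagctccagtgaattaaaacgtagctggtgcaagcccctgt
Perm1: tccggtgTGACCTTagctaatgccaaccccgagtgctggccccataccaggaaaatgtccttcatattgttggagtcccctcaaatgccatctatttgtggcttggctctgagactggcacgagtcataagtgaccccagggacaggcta
Esrra: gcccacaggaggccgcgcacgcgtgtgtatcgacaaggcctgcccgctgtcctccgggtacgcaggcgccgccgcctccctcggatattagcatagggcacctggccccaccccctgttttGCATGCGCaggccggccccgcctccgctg
Sirt3: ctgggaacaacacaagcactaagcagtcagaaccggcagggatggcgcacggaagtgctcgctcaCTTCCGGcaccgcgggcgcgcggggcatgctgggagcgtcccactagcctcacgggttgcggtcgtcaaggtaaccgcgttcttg

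The capitals mark an ERR half-site in Perm1 (AAGGTCA, here on the opposite strand as TGACCTT), an NRF1 core in Esrra (GCGCATGC, here as GCATGCGC) and a core of the ETS factor GABP in Sirt3 (CCGGAAG, here as CTTCCGG). Ppargc1a had no match, also to the full cyclic AMP element TGACGTCA. Shorter forms of that element, such as CGTCA, which the stretch holds, were not searched. Over both strands of 32851 RefSeq windows, 4.72% held the ERR half-site, 2.71% the NRF1 core, 8.86% the GABP core and 1.79% the cyclic AMP element. In the other windows of the 10 genes the GABP core stood 38 bases before the Polg start and 47 before the Tfam start, and the NRF1 core 14 bases into the Tfb2m transcript. These matches describe the letters and show no binding.

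Ppargc1a encodes PGC-1-alpha, the main inducible coactivator of the family. In sham its lowest, median and highest levels were 114, 140.2 and 168 CPM, and in HP-AKI 46.8, 61.1 and 64.8 CPM. Every HP-AKI library lay below every sham library, with the lowest value in HP-AKI 12. The means were 140.1 ± 22.5 and 59.1 ± 6.38 CPM (SD, n = 6 each). The log2 fold change was -1.25 ± 0.11 (SE). Ppargc1b encodes PGC-1-beta, a more constitutive relative. It ran at 3.76, 4.54 and 7.82 CPM in sham and at 2.04, 3.40 and 5.25 CPM in HP-AKI, so the groups overlapped. Its log2 fold change was -0.59 ± 0.24 (SE). Leaving out sham 4, its highest library, gave -0.43.

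Per kilobase, Ppargc1a exceeded Ppargc1b by 17.8 ± 5.93 times (SD, n = 6) in sham and 11.8 ± 4.72 times in HP-AKI, with ranges of 8.95 to 25.9 and 6.81 to 18.3 that overlapped. Both injured and sham kidney therefore held far more message of the alpha than of the beta form.

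Perm1 is a regulator of oxidative metabolism known from skeletal muscle and heart, where PGC-1 and ERR induce it. Its lowest, median and highest levels were 8.64, 11.02 and 12.3 CPM in sham. In HP-AKI they were 0.175, 0.454 and 0.737 CPM, and the 6 libraries held 6 to 24 counts each. Sham 2 was the lowest sham library and still stood far above the highest HP-AKI library, number 13. The log2 fold change was -4.63 ± 0.24 (SE), a 25.0-fold difference of the means, and 7 of the 17470 tested genes had a lower one. Of 8 skeletal muscle markers, 1 (Mylpf) was abundant enough to test, and it fell by 0.64. Their summed level was 1.06 to 2.28 CPM in sham and 0.981 to 1.57 CPM in HP-AKI. This sum lay below Perm1 in every sham library and above Perm1 in every HP-AKI library. The muscle creatine kinase Ckm had 2 counts in each group. The part of muscle in the Perm1 values was not tested.

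The estrogen-related receptors are orphan nuclear receptors that act through PGC-1 coactivators. Esrrg ran at 97.6, 113 and 141 CPM (lowest, median, highest) in sham and at 35.5, 37.2 and 42.3 CPM in HP-AKI. The groups were far apart and the HP-AKI libraries close together, with a coefficient of variation of 7.35%. Its log2 fold change was -1.61 ± 0.09 (SE). Esrra ran at 12.9, 31.8 and 35.0 CPM in sham and at 6.09, 11.3 and 16.3 CPM in HP-AKI. Sham 2 (12.9) lay inside the HP-AKI range and sham 1 (16.5) just above it, and the other 4 sham libraries lay at 29.9 or above. The log2 fold change was -1.29 ± 0.28 (SE), and -1.51 ± 0.17 without sham 1, sham 2 and HP-AKI 8.

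Nrf1, nuclear respiratory factor 1, drives nuclear genes of the respiratory chain and of mitochondrial DNA upkeep, and is unrelated to the antioxidant regulator NRF2. It ran at 14.2, 14.7 and 18.9 CPM in sham and at 24.7, 28.04 and 32.8 CPM in HP-AKI. Every HP-AKI library was above every sham library, and HP-AKI 13 was the highest. Its log2 fold change was 0.83 ± 0.10 (SE). It was thus higher while Ppargc1a and Ppargc1b were lower.

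Tfam packages mitochondrial DNA and starts its transcription, and Tfb2m opens the promoter for the mitochondrial RNA polymerase. Tfam ran at 64.2, 69.1 and 86.1 CPM in sham and at 54.9, 60.5 and 64.5 CPM in HP-AKI. HP-AKI 9 alone reached above the lowest sham library, number 5. The log2 fold change was -0.30 ± 0.09 (SE). Tfb2m ran at 32.5, 33.8 and 44.3 CPM in sham and at 29.2, 32.7 and 39.8 CPM in HP-AKI, with overlapping groups and a log2 fold change of -0.13 ± 0.11 (SE). Within a library the per-kilobase level of Tfam was 1.27 ± 0.0420 times that of Tfb2m in sham and 1.13 ± 0.0748 times in HP-AKI (SD, n = 6 each).

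Polg, the catalytic subunit of the polymerase that copies mitochondrial DNA, ran at 36.5, 40.8 and 47.2 CPM in sham and at 41.4, 46.9 and 53.8 CPM in HP-AKI. The groups overlapped, and the log2 fold change was 0.21 ± 0.08 (SE). Leaving out HP-AKI 12, its highest library, gave 0.15. Sirt3 removes acetyl groups from enzymes of the mitochondrial matrix. It ran at 52.1, 85.0 and 94.8 CPM in sham and at 17.7, 22.8 and 30.8 CPM in HP-AKI, with no overlap. Sham 1 (58.3) and sham 2 (52.1) were again the lowest of their group. The log2 fold change was -1.73 ± 0.17 (SE), and the neighbours whose exons it shares, Psmd13 and Ric8a, differed the other way (0.62 and 1.29).

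Divided by the gene length the table lists, sham levels ran from 49.6 ± 11.5 CPM per kilobase for Sirt3 (SD, n = 6) through Ppargc1a (21.1 ± 3.39), Esrrg (18.7), Tfam (16.6), Tfb2m (13.1), Esrra (10.6) and Polg (5.99) to Perm1 (2.79), Nrf1 (1.52) and Ppargc1b (1.28). From Ppargc1a to Polg each range overlapped that of the next gene, as did those of Nrf1 and Ppargc1b. In HP-AKI the order was Sirt3 (14.9), Tfam (13.5), Tfb2m (11.9), Ppargc1a (8.90), Polg (6.95), Esrrg (6.14), Esrra (4.35), Nrf1 (2.71), Ppargc1b (0.851) and Perm1 (0.112). There each range overlapped that of the next gene except between Tfb2m and Ppargc1a, Nrf1 and Ppargc1b, and Ppargc1b and Perm1. Tfam and Tfb2m thus stood above Ppargc1a and Esrrg in HP-AKI and below them in sham. The lead of Sirt3 rests on its listed length of 1570 bases. With the 5973 bases of all its GENCODE exons it came to 13.03 CPM per kilobase in sham, rank 5, and 3.92 in HP-AKI, rank 6. The order of Ppargc1a, Esrrg, Tfam and Tfb2m was the same with either length.

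**Figure D2:**
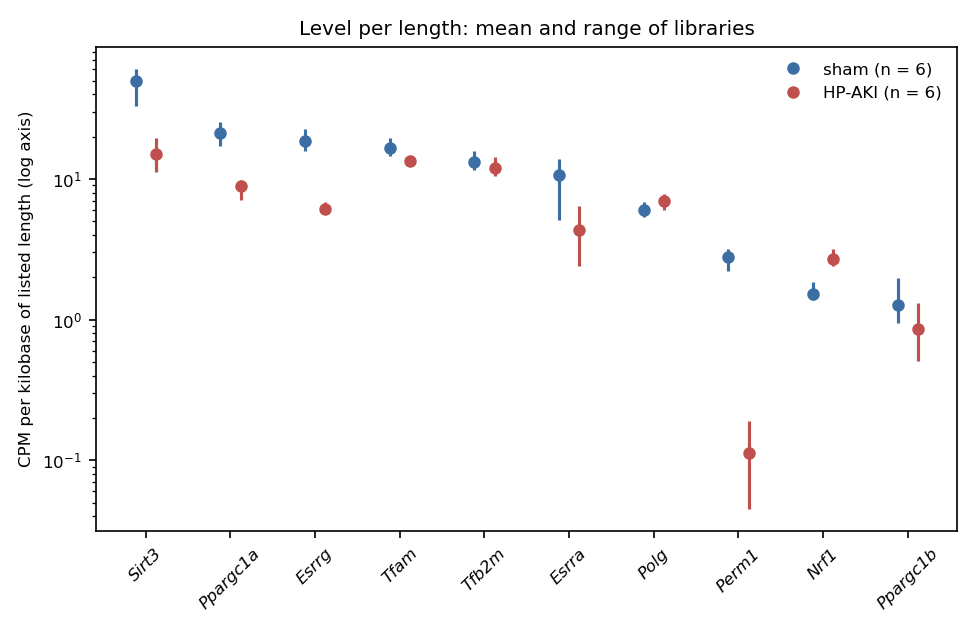
Level per kilobase of listed gene length on a log axis. Points are means and lines the range of the 6 libraries in each group, with genes ordered by their sham mean. Perm1 lies at 2.79 in sham and 0.112 in HP-AKI, and Tfam at 16.6 and 13.5.

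The libraries held 31624522 to 41951129 counts each. Sham 1, sham 2 and HP-AKI 8 stood at the lower end of the second principal component (7.85% of the variance). In these libraries GC-rich genes were low for their group: the slope on gene GC content of log2 CPM, as deviation from the group mean, was -0.300, -0.437 and -0.406 per 10 points of GC, against -0.158 to 0.316 in the other 9. Esrra (58.4% GC) and Sirt3 (52.2%) were low in them, and Tfb2m (43.3%) and Tfam (44.4%) were high. With GC offsets in the fit, Esrra was at -1.46 ± 0.15 (SE), Sirt3 at -1.74 ± 0.14, Ppargc1a at -1.14 ± 0.08, Esrrg at -1.51 ± 0.06, Perm1 at -4.67 ± 0.19, Nrf1 at 0.85 ± 0.08, Tfam at -0.20 ± 0.04, Tfb2m at -0.04 ± 0.04 and Polg at 0.13 ± 0.06. Ppargc1b (57.9% GC) was at -0.79 ± 0.16. The offsets left every direction as it was and narrowed the error of all 10 genes. Unlike the slopes, they were taken relative to the mean over the libraries of both groups. Any GC-linked difference between HP-AKI and sham was therefore adjusted as well.

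**Figure D3:**
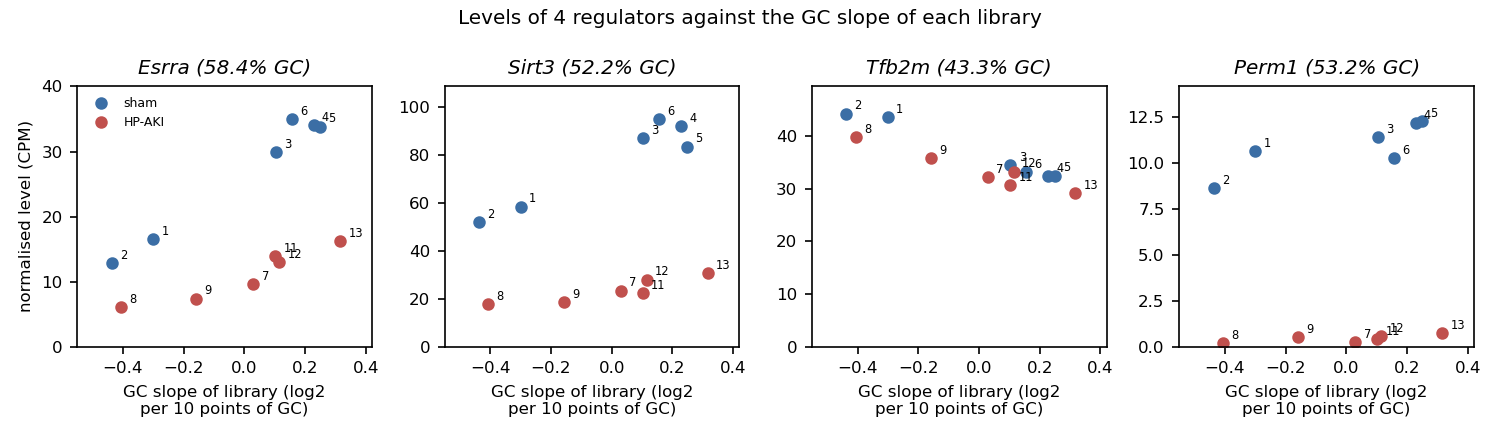
Level of 4 of the genes (CPM, linear axes from 0) against the GC slope of each library, the change of log2 CPM per 10 points of gene GC relative to the group mean. Points are libraries with their numbers. Esrra and Sirt3 are higher and Tfb2m lower in libraries with a higher slope, in both groups. Perm1 runs from 8.64 to 12.3 CPM in sham and from 0.175 to 0.737 CPM in HP-AKI. The slope is taken within each group, so it cannot show a GC difference between the groups.

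Marker genes of the tubule and of other cell types moved in the same comparison. All 7 proximal tubule markers fell, their summed level running from 10040 to 11420 CPM in sham and from 1857 to 2931 CPM in HP-AKI. Of 4 markers of the thick ascending limb, 2 fell and 1 rose (summed level 6524 to 7044 and 4246 to 6386 CPM), and of 5 of the collecting duct, 2 fell (239 to 260 and 203 to 245 CPM). Of 3 markers of the distal convoluted tubule, 2 fell (462 to 845 and 199 to 311 CPM). Of 4 endothelial markers, 3 rose (415 to 488 and 518 to 788 CPM), and of 3 fibroblast markers, 2 rose (153 to 187 and 244 to 298 CPM). Of 3 podocyte markers, 2 rose and 1 fell (94.1 to 141 and 115 to 179 CPM). Of 4 macrophage markers, Cd68 rose from 2.82 to 32.97 CPM and Adgre1 and Csf1r fell (summed level 54.4 to 81.2 and 58.6 to 76.0 CPM). All 3 neutrophil markers rose (1.67 to 3.15 and 15.9 to 135 CPM). In whole-kidney RNA fewer cells of a type and less RNA per cell cannot be told apart, and the part of cell content in the levels of the 10 genes was not tested. Brown fat is rich in several of these regulators. Summed levels of 5 fat markers ran from 0.273 to 21.1 CPM in sham and from 0.964 to 40.2 CPM in HP-AKI, and 0 of the 4 tested passed (edgeR). The highest was HP-AKI 13, with 28.2 CPM of the brown fat protein Ucp1. That library was also the highest of its group for Perm1, Ppargc1b, Esrra, Nrf1 and Sirt3, and it had the highest GC slope. It was the lowest of its group for Esrrg, Tfam and Tfb2m, and neither highest nor lowest for Ppargc1a and Polg. The part of fat in these values was not tested.

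Around the 10 genes, 92 others of the pathway were measured in 6 lists, and all 92 were abundant enough to test. By edgeR's quasi-likelihood test with Benjamini-Hochberg adjustment over all genes, 52 fell, 22 rose and 18 did not pass, beside 35.2% and 37.7% of all genes. Their median log2 fold change was -0.402, and that of all tested genes 0.0418. Because the lists were chosen with earlier results of these data known, these counts are a description.

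Among 14 partner receptors, cofactors and DNA-binding regulators, 8 rose and 4 fell, with a median of 0.355. Pprc1, the growth-inducible relative of the PGC-1 coactivators, rose from 13.1 ± 1.98 (SD, n = 6) to 41.1 ± 4.35 CPM, or by 1.65 ± 0.11 in log2 (SE, adjusted p 2.90e-09). Ppard, a receptor for fatty acids, rose from 5.01 ± 1.92 to 15.96 ± 6.18 CPM, by 1.67 ± 0.30. Gabpb1, a subunit of GABP, rose by 1.41 and the repressor of ERR and PPAR signalling Nrip1 by 1.03, while Yy1, with the highest level per kilobase in HP-AKI (24.1 CPM, and 19.5 in sham), rose by 0.31. The 4 that fell were the thyroid hormone receptor Thrb (-1.44), the fat-oxidation receptor Ppara (-0.99), the third ERR gene Esrrb (-0.98) and the corepressor Ncor1 (-0.44). Rxra (-0.33) did not pass, but did without sham 2 (-0.43) and without HP-AKI 13 (-0.44), and Tfeb (0.08) did not pass. Pparg rose by 0.40, and its call was lost when any 1 of sham 1 and 3 and HP-AKI 9 and 12 was left out (0.33 to 0.34). The 3 ERR genes were thus all lower, and Pprc1 was higher while Ppargc1a and Ppargc1b were lower.

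The list of upstream kinases and deacetylases holds 15 genes, of which only some act on PGC-1-alpha protein itself. Of these 15, 8 rose and 2 fell, with a median of 0.208. The subunits of AMP-activated protein kinase, the energy sensor, moved in both directions. The catalytic subunit Prkaa2 fell from 332 ± 48.5 to 137 ± 16.8 CPM (log2 fold change -1.28 ± 0.11, SE) and Prkaa1 rose by 0.66. The beta subunits Prkab2 and Prkab1 rose by 1.61 ± 0.08 and 1.24. The gamma subunits Prkag1 (0.11), the list's highest per kilobase in both groups, and Prkag2 (-0.14) did not pass, the latter passing without HP-AKI 9 (-0.20). Sirt1, the deacetylase that activates PGC-1-alpha, rose by 0.40. Flcn, a brake on this pathway, fell by 0.46. Ppp3ca rose by 0.21, a call lost without sham 4, 5 or 6 or HP-AKI 7 or 8 (0.17 to 0.19).

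Of 17 genes of mitochondrial transcription and RNA processing, 13 fell and 2 rose, with a median of -0.516. Tfb1m, the relative of Tfb2m that methylates mitochondrial ribosomal RNA, fell from 9.72 ± 0.857 to 2.65 ± 0.664 CPM (log2 fold change -1.87 ± 0.15, SE), beside -0.13 for Tfb2m itself. Mterf2, of the transcription termination factor family, fell by 1.52, and Grsf1, an RNA-granule protein with the highest level per kilobase of the list in both groups, fell by 0.70. Lrpprc, which stabilises mitochondrial messenger RNA, fell from 179.7 to 84.8 CPM. Polrmt, the RNA polymerase, was at -0.38 ± 0.30 (SE) and did not pass, but did with GC offsets (-0.60). Trmt10c (0.54) and Mtpap (0.40) were the 2 that rose. The table lists 0 counts throughout for the 37 genes that mitochondrial DNA encodes, so the transcripts that Tfam, Tfb2m and Polrmt produce cannot be followed here.

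Of 18 genes of mitochondrial DNA replication and nucleotide supply, 10 fell and 3 rose, with a median of -0.427. Mgme1, a nuclease that trims replication ends, fell from 18.8 ± 1.24 to 6.58 ± 0.540 CPM (log2 fold change -1.52). Mpv17, an inner membrane protein needed to keep mitochondrial DNA, fell by 1.30, and the helicase Twnk also fell (-0.91). The accessory polymerase subunit Polg2 was at -0.04 ± 0.14 (SE) and did not pass, and Polg itself was at 0.21. The 3 that rose by 0.96 to 0.99 were Top3a, Rnaseh1 and the pyrimidine carrier Slc25a33. Ssbp1 (-0.25) did not pass, but did when any 1 of sham 4 and 6 and HP-AKI 8 and 9 was left out (-0.29 to -0.32).

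Of 10 mitochondrial sirtuins and SIRT3 substrates, 9 fell and 0 rose, with a median of -1.13. The sirtuins Sirt4 and Sirt5 fell (-1.28 and -1.07), beside -1.73 for Sirt3. Idh2, which supplies matrix NADPH, fell from 332 ± 76.9 to 103 ± 20.03 CPM (log2 fold change -1.69 ± 0.17, SE), and Sod2, the matrix superoxide dismutase, fell by 1.54. Acadl, at 209 CPM per kilobase in sham and 178 in HP-AKI, fell by 0.23, a call lost with library size only (-0.11) and with GC offsets (-0.13). Glud1 (0.17) did not pass.

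Of 18 target genes of PGC-1 and ERR, 14 fell and 1 rose, with a median of -0.67. Ndufs1, a subunit of complex I, fell from 608 ± 87.0 to 201 ± 17.7 CPM (log2 fold change -1.601). Acadm, of medium-chain fat oxidation, fell by 1.51 and Atp5b, the catalytic ATP synthase subunit with the highest level per kilobase of the list in both groups, fell by 0.84. Pdk4, which shuts pyruvate out of the citric acid cycle, was the 1 that rose, from 35.4 ± 8.80 to 813 ± 335 CPM, or by 4.52 ± 0.27 in log2 (SE, adjusted p 1.00e-09). Cpt1a (-0.06), Cox4i1 (-0.10) and Mdh2 (-0.29) did not pass, the last passing without sham 2 (-0.39) and without HP-AKI 13 (-0.39).

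**Figure D4:**
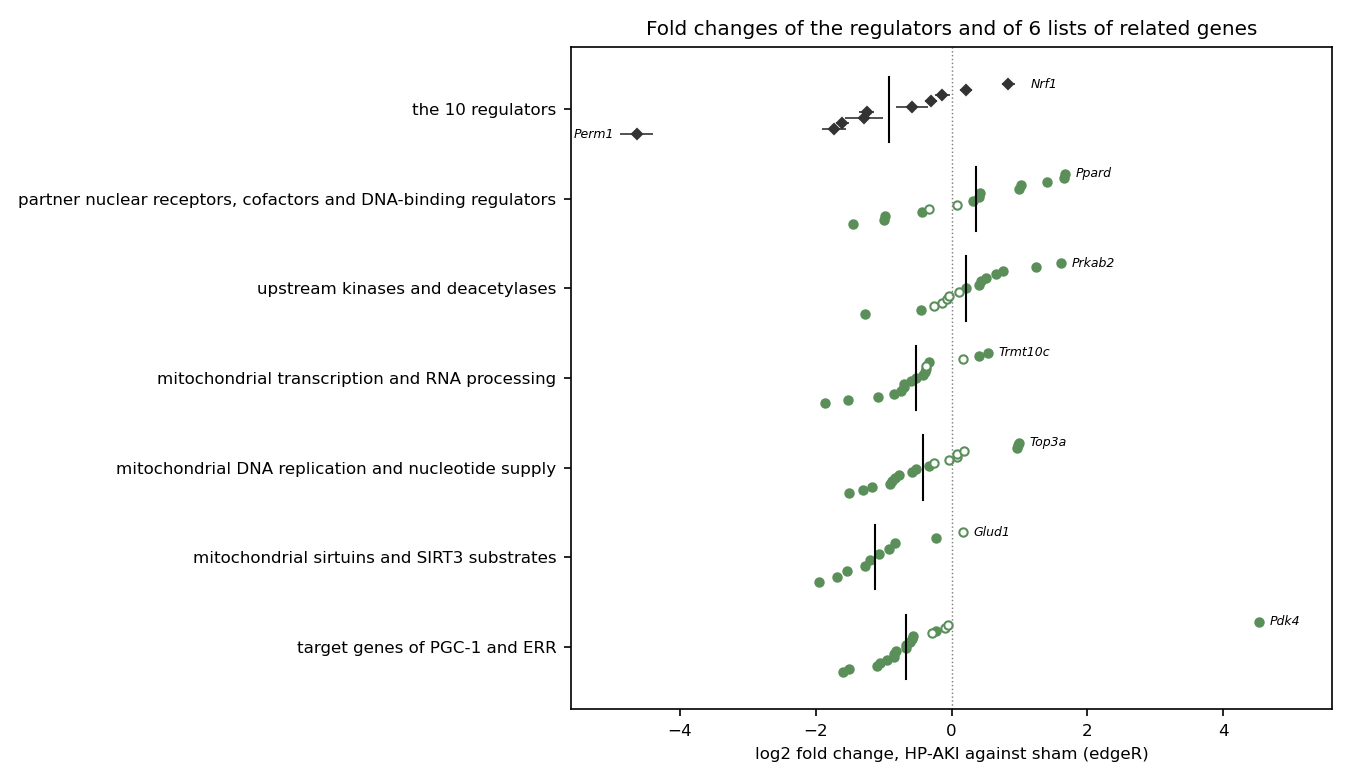
Log2 fold change of HP-AKI against sham for the 10 regulators (diamonds, bars are the SE) and for 6 lists of related genes (circles, filled where the adjusted p of edgeR is under 0.05). Vertical lines are medians, and the lowest and highest regulator and the highest gene of each list are named. Perm1 lies at -4.63 and Pdk4 at 4.52, beyond the other genes shown.

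Variation inside each group was not used to choose the genes, and the relation of Ppargc1a to the other 9 was tested in it. Over 18 relations (9 in sham, 9 in HP-AKI, n = 6 each), 0 passed a Benjamini-Hochberg adjusted p of 0.05 (two-sided exact permutation test of Pearson's r over 720 orders), and 4 in sham and 0 in HP-AKI had an unadjusted p under 0.05. In sham, Ppargc1a went with Tfam (r = 0.92, exact permutation p = 0.0194, adjusted 0.175, Spearman's rho = 0.94 with p = 0.0167), Tfb2m (r = 0.89, p = 0.0389, rho = 0.89 with p = 0.0333) and Esrrg (r = 0.88, p = 0.0319, rho = 0.89 with p = 0.0333), and against Polg (r = -0.93, p = 0.0167, rho = -0.89 with p = 0.0333). The adjusted p of these rho was 0.15 in each case. Without the 2 sham libraries farthest from the median of Ppargc1a, r was 0.99, 0.98, 0.79 and -0.93, and without sham 1 and sham 2 it was 0.86, 0.86, 0.73 and -0.82. In HP-AKI the r of Ppargc1a was -0.13 with Tfam, -0.03 with Tfb2m, -0.66 with Esrrg and -0.64 with Polg. Ppargc1a, Tfam, Tfb2m and Esrrg have 43.3% to 45.5% GC and Polg 55.6%, and the part of the GC slope in these relations was not tested.

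Genes whose levels varied most like those of Perm1 and Ppargc1a around the group means were looked up among 10822 protein-coding genes over the 12 libraries. For Perm1 they were Pigv, Zfp316, Gripap1, Zswim1 and Kdelr1, with r from 0.92 down to 0.89 and a GC content of 52.5% to 60.2%. For Ppargc1a they were Isy1, Ccser1, Nbea, Ccdc34 and Ddx52, with r from 0.97 down to 0.94 and 39.7% to 49.8% GC. None of the 10 regulators was among either set, but Ppargc1b lay below the mean level required and was not searched. The points share library, depth and GC slope, so these values describe the libraries only.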

How the data were processed

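Kidney RNA was made into TruSeq RNA v2 libraries after Trizol and Qiagen extraction, per the labels' protocols. TopHat2 2.1.0, featureCounts, edgeR and GRCm38 are named without roles in the submitters' processing notes, and settings are not given in the sources used here. The deposited counts are whole numbers per gene and sample, made by the authors without normalization. The authors' deposited RPKM values (scaled to gene length and library total) were not used for results.

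All 12 libraries entered edgeR 4.0.16 (R 4.3.3, limma 3.58.1): filterByExpr, TMM factors, quasi-likelihood F-test, two-sided, Benjamini-Hochberg adjustment over 17470 genes, threshold 0.05. The SE is the log2 fold change divided by the square root of F. CPM are TMM-scaled, and log2 CPM used a prior count of 2. GC content is from GENCODE vM21 transcripts (99.2% of tested genes). The edgeR, DESeq2 and limma-voom fits were tested on simulated counts in which few genes changed, unlike in these data. The other steps were not simulated. Python 3.11.15 made tables, permutation tests and figures.

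The 10 genes and the lists were chosen with earlier results of these data known. Of the names, 153 matched by symbol and 2 by identifier (Twnk and Adgre1, under older symbols). Named by rule were the 10 genes, from each list the 2 called genes of largest change and the one of highest level per length, and the 5 genes most like Perm1 and Ppargc1a (mean of at least 5 CPM). 1 gene that this rule names is not reported here. Other list genes were named after their values were seen. Alternatives were other scalings (RLE, upper quartile, library size), filters, DESeq2 1.42.0, limma-voom, left-out libraries and, added after seeing the data, GC offsets and GENCODE exon lengths.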

Additional observations from a re-analysis of the deposited data

Results flagged for a closer look

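Ppargc1a in HP-AKI 12 stood apart from its group. At 46.8 CPM it lay below the other 5 HP-AKI libraries, which ran from 58.8 to 64.8 CPM, and the gap was 0.666 of the group's range, above Dixon's 95% critical value for 6 samples. This was 1 of 20 groups checked (10 genes in sham and HP-AKI), and chance alone flags about 1 in 20. Without this library the log2 fold change of Ppargc1a was -1.20.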

How the results depend on the processing

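Over 21 alternatives the number of genes past the threshold ran from 11163 to 14633, that of the 10 regulators from 7 to 9, and that of pathway genes from 49 to 57 lower and from 20 to 25 higher. Among the 10, Polg was past the threshold in 8 of the 21 and Ppargc1b in 15. The log2 fold changes of all 10 kept their sign. Ppargc1a ran from -1.30 to -1.12, Perm1 from -4.84 to -4.51, Esrra from -1.51 to -1.19, Esrrg from -1.66 to -1.48, Sirt3 from -1.90 to -1.62, Nrf1 from 0.76 to 0.95 and Tfam from -0.35 to -0.18, Ppargc1b from -0.79 to -0.43, Polg from 0.13 to 0.33 and Tfb2m from -0.21 to -0.01. Since the genes were chosen on this comparison, the count of calls among them is a description and supports nothing. Library size alone moved the median of all genes from 0.0418 to 0.161, and small changes are relative to that. The relations of Ppargc1a within groups stayed at 0 past the threshold with library size only and with a prior count of 0.5. No paired analysis was possible because the groups share no replicate numbers. Depth limits Perm1 in HP-AKI, where 6 to 24 counts per library leave wide counting error.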
